A study of Caenorhabditis elegans with 2 samples.

Results

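Peaks of tagged PQM-1 binding that lie at promoters of one strand only are the subject here: the summit of each lay in the promoter of a protein-coding gene, and no gene of the opposite strand had its promoter at that position. A promoter was the stretch that starts 1000 bp before a gene's 5' end and stops 250 bp after it, in the Ensembl annotation of WBcel235, the same assembly as ce11. By this rule 2161 of the 5560 peaks in the authors' optimal list (38.9%) were one-strand promoter peaks. A further 592 peaks lay at divergent promoters, where promoters of both strands overlap, and 2807 lay outside promoters. The data come from chromatin immunoprecipitation and sequencing of Caenorhabditis elegans larvae at the L3 stage, with both sexes pooled and an unknown age. The worms were of strain OP201, in which every animal carries the tm4063 allele of unc-119 on chromosome III and the insertion wgIs201, an eGFP-tagged pqm-1. The design held 1 group with 2 biological replicates and no second condition, so comparisons are between kinds of peak and kinds of sequence, not between treatments. Whole animals were used, so binding in different tissues cannot be told apart, and the tagged copy is a transgene, whose level relative to the endogenous protein was not measured.

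PQM-1 is a zinc finger transcription factor of the worm. It is known for acting opposite to the insulin-regulated factor DAF-16, and it is prominent in the intestine, where much of the worm's fat storage and digestion takes place. Genes controlled by that pathway often carry the DAF-16-associated element (DAE), TGATAAG, which reads CTTATCA on the other strand and resembles the sites of GATA factors. A promoter that serves a gene on 1 strand gives each motif a direction relative to that gene, which a divergent promoter does not.

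The sequences that follow are the windows of 50 bp on either side of the summits of 9 strong one-strand promoter peaks, read 5' to 3' on the strand of the gene from the RefSeq genome of the ce11 assembly. They are shown because they differ in the presence and direction of the DAE, which is the property most of the results turn on. Capitals mark DAE matches. The first set holds the 3 strongest peaks with the element in the gene's direction only: cpr-4, whose product is a cathepsin B-like protease (chrV:6614507-6614607, plus strand), C52E2.2 (chrII:1851849-1851949, plus strand) and ZK550.2 (chrIV:17245362-17245462, plus strand).
cpr-4: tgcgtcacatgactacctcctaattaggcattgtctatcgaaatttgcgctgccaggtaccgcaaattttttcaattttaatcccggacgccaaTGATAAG
C52E2.2: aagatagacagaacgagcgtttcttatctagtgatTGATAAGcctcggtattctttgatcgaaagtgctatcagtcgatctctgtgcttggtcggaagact
ZK550.2: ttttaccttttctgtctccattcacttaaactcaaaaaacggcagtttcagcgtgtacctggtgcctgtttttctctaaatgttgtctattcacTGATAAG

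The second set holds the 3 strongest peaks with the element in the opposite direction only: srz-62, a member of a chemoreceptor family (chrIV:3899977-3900077, plus strand), T24E12.13 (chrII:3786677-3786777, plus strand) and B0507.3 (chrV:8768623-8768723, plus strand).
srz-62: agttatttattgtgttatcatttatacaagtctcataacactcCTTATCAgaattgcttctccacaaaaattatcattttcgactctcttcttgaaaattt
T24E12.13: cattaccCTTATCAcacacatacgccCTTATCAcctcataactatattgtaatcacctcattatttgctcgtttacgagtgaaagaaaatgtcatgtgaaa
B0507.3: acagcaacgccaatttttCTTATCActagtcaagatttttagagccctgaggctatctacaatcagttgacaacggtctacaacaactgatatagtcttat

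The third set holds the 3 strongest peaks with no exact match: frm-10, a gene for a FERM domain protein (chrV:13463004-13463104, plus strand), lbp-3, a lipid-binding protein gene (chrX:3256928-3257028, plus strand), and abhd-3.2, an alpha/beta hydrolase domain gene (chrX:978387-978487, minus strand).
frm-10: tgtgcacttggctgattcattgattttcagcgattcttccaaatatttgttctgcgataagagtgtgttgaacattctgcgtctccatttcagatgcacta
lbp-3: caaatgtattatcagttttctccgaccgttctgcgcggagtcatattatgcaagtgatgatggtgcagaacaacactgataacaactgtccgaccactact
abhd-3.2: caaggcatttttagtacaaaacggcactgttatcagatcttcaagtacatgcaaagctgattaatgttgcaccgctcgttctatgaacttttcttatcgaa

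The window of T24E12.13 held 2 matches and the other 5 windows with the element held 1 each. None of the windows in the third set held the exact element, but each held positions that differ from it at a single base: 1 position at frm-10, 2 at lbp-3 and 2 at abhd-3.2. Such near matches were common. Of the 1628 one-strand promoter peaks without an exact match, 42.1% held a sequence 1 base away from the DAE within 50 bp of the summit (exact 95% interval 39.7 to 44.5), against 26.3% of the windows 500 bp upstream that lacked an exact match (24.2 to 28.6, n = 1596).

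One-strand promoter peaks gathered close to the 5' ends of their genes. Their summits had a median position of -198 bp, with quartiles at -444 and -78 bp, where negative values are upstream. Divergent peaks lay closer still, with a median of -133 bp to the nearer gene and quartiles at -207 and -54.8 bp. Of the one-strand summits, 1034 (47.8%) lay within 250 bp upstream, 426, 250 and 236 lay in the next 3 stretches of 250 bp going upstream, and 215 (9.95%) lay at or downstream of the 5' end. The position of a summit is what the rule selected on, so these values are a description. So are the densities: sequence at the promoters of one strand only made up 20.1 Mb and held 107.5 peaks per Mb, divergent promoter sequence made up 2.23 Mb and held 265.4 peaks per Mb, and the other 77.9 Mb held 36.01 peaks per Mb. At the far edge of the promoter, the 52 peaks in the last 50 bp inside had a median signal of 41.2 and a DAE in 26.9%, and the 43 peaks in the first 50 bp outside had a median signal of 42.0 and a DAE in 20.9%. The signal is a score that the authors gave each peak on an unstated scale.

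**Figure D1:**
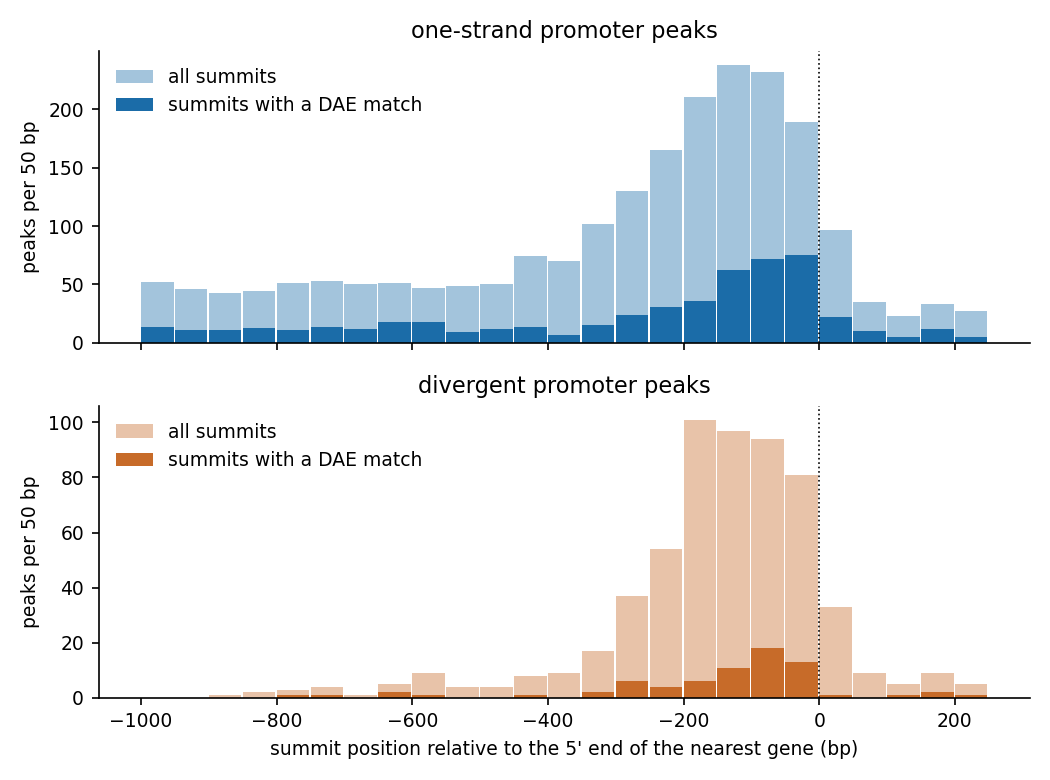
Number of summits per 50 bp against position relative to the 5' end of the nearest gene, for one-strand promoter peaks (upper panel) and divergent promoter peaks (lower panel), with all summits in light colour and those with a DAE within 50 bp in dark colour. The fullest bin of the one-strand peaks runs from -150 to -101 bp with 238 summits, of which 62 have the element, and the bin next to the 5' end holds 189 summits, of which 75 have it.

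Most one-strand summits lay in intergenic sequence, 1759 of 2161 (81.4%). In their own gene lay 215, made up of 132 in an untranslated region, 50 in an intron and 33 in a coding exon. In the body of a neighbouring gene lay 103 on the same strand and 84 on the opposite strand. Going upstream from the bound gene, the next gene pointed the same way for 1323 peaks (61.2%), with a median gap of 931 bp, and pointed away for 715 peaks (33.1%), with a median gap of 3139 bp. For the remaining 123 peaks the bound gene began inside another gene. The rule leaves out summits where promoters of both strands overlap, which takes out peaks where head-to-head genes lie close together. These shares and gaps are therefore a description, with no share over all genes beside them. A DAE was present at 25.7% of the peaks with a tandem neighbour and 22.7% of those with a head-to-head neighbour, a difference of 3.04 percentage points (interval -0.896 to 6.83, Fisher's exact p = 0.132), which did not pass the threshold of 0.05. Genes of other kinds, mostly non-coding, had a promoter on the opposite strand at 289 of the one-strand summits (13.4%). The promoters held 1092 summits at genes of the plus strand and 1069 at genes of the minus strand, and 2120 of the 2161 summits lay at 1 gene and 41 at 2 genes.

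The DAE was the heptamer with the largest excess at one-strand summits over their upstream flanks among all heptamers, each counted together with its reverse complement. A match lay no more than 50 bp from the summit in 533 of 2161 peaks (24.7%, exact 95% interval 22.9 to 26.5). In windows of the same size 500 bp upstream 2.04% had one (1.48 to 2.72), and 500 bp downstream 2.78% (2.13 to 3.56). The element was present at the summit alone for 521 peaks and in the upstream flank alone for 32 (exact sign test, adjusted p = 7.73e-114 over 12 tests). Next by excess came GATAAGA (21.1% of summits and 1.94% of upstream flanks), CTGATAA (20.4% and 2.64%), ACTGATA (16.5% and 1.80%) and ATAAGAA (12.3% and 2.82%). They were followed by TTATCAA (15.1% and 5.65%), GTTATCA (11.2% and 2.36%), AGAGAAA (12.5% and 3.93%), GTGATAA (9.67% and 1.43%) and AACTGAT (10.6% and 2.50%). All of these but AGAGAAA overlap the element or vary it at an end. At the other end, AAAAATT was present at 9.81% of summits and 26.1% of upstream flanks. The upstream flanks held more A and T, 32.2% and 33.8% on the gene's strand, against 27.8% and 32.3% at summits. The part of base content in these differences was not tested.

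Around the element the bases were uneven. Of 596 matches at one-strand summits with a base after the final G inside the window, 59.6% were followed by A and 6.21% by T, against 36.9% and 23.4% of 111 matches in the flanks. The base before the first T was C at 37.7% of 600 matches at summits and 27.3% of 110 in the flanks. The nearest match lay a median of 20 bp from the summit (quartiles 10 and 32 bp), and 471 peaks had 1 match, 56 had 2 and 6 had 3 or more. Among the 471 with a lone match, the summit lay before the element, read in the element's own direction, in 252 (53.5%, interval 48.9 to 58.1). The summits of replicate 1 gave 55.4% of 462 and those of replicate 2 gave 56.6% of 378.

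**Figure D2:**
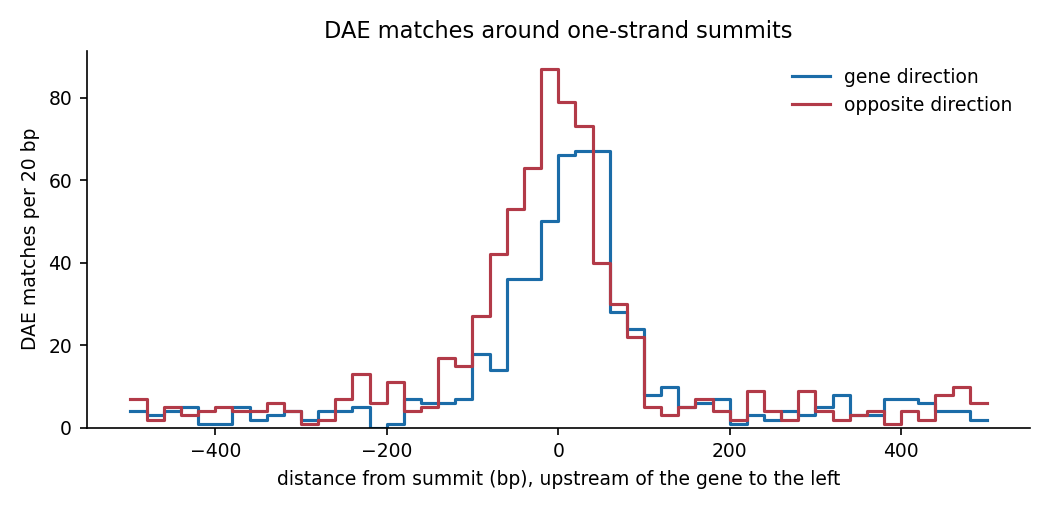
Number of DAE matches per 20 bp against distance from the summit of one-strand promoter peaks, read on the gene's strand, with matches in the gene's direction in blue and matches in the opposite direction in red. Matches in the opposite direction reach 87 in the 20 bp just upstream of the summit, and those in the gene's direction reach 67 between 20 and 59 bp downstream, while bins far from the summit hold few of either.

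Most copies of the DAE in promoter sequence were not near a summit. The sequence at promoters of one strand only held 4775 copies of the element, and 638 of them (13.4%, interval 12.4 to 14.4) lay within 50 bp of a one-strand summit. The share was 14.4% of 577 copies in divergent promoter sequence (11.6 to 17.5) and 6.37% of 13334 copies outside promoters (5.97 to 6.80). For the GATA-like sequence AGATAA the share was 2.14% of 14085 copies in the promoters of one strand only, 2.77% of 1623 in divergent promoters and 0.794% of 48233 outside promoters. These shares are descriptions, and they depend on how many peaks the list holds.

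One-strand peaks carried the DAE more often than divergent peaks, and their share was not shown to differ from that of peaks outside promoters. The share was 24.7% at one-strand peaks and 12.0% at the 592 divergent peaks (9.49 to 14.9), a difference of 12.7 percentage points (interval 9.30 to 15.7, Fisher's exact test, adjusted p = 6.69e-11 over 24 comparisons). Without replicate 1, when the strongest peaks of replicate 2 took the place of the optimal list, the difference was 8.11 points (exact test, adjusted p = 0.000294). Peaks outside promoters had a share of 25.8%, so the one-strand share was lower by 1.09 points (interval -3.51 to 1.35, exact test, adjusted p = 0.553). Without replicate 1 the one-strand share was instead 2.44 points higher (exact test, adjusted p = 0.0869), and in the strongest 1000 peaks it was 2.36 points higher (exact test, adjusted p = 1). The p-values treat neighbouring peaks as independent and cover counting error only. The G and C content within 50 bp of the summit was 39.8% ± 8.13 at one-strand peaks, 42.8% ± 8.53 at divergent peaks and 39.7% ± 7.62 outside promoters (SD over peaks), and its part in the difference was not tested.

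At like distances from the 5' end, the difference from divergent peaks passed the test in both ranges nearest to it. Among summits within 250 bp upstream, 276 of 1034 one-strand peaks (26.7%) and 52 of 427 divergent peaks (12.2%) had the DAE, a difference of 14.5 points (interval 10.2 to 18.4, Fisher's exact test, adjusted p = 1.99e-09 over 5 ranges). At or downstream of the 5' end the shares were 25.1% of 215 and 8.20% of 61 (exact test, adjusted p = 0.0105). In the next 250 bp upstream they were 16.9% of 426 and 12.0% of 75 (exact test, adjusted p = 0.493), and farther upstream the divergent peaks numbered only 23 and 6 in the next stretches of 250 bp. Along the one-strand promoters themselves, the element was present at 28.4% of 250 summits from -750 to -501 bp and at 25.4% of 236 summits beyond. Summits more than 250 bp upstream carried it in 22.3% and nearer ones in 26.4%, a difference of -4.16 points (interval -7.77 to -0.484) that missed the threshold after adjustment over 6 motifs (Fisher's exact test, adjusted p = 0.0893). Without replicate 1 that difference was -7.70 points (adjusted p = 9.69e-05) and without replicate 2 it was -2.59 points (adjusted p = 0.410, exact tests).

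Stronger one-strand peaks carried the DAE more often. With the optimal list cut into 4 equal parts, strongest first, the share was 35.2% of 562, 24.5% of 546, 20.5% of 546 and 17.6% of 507 one-strand peaks. The odds of a match in the strongest part were 2.55 times those in the weakest (Fisher's exact p = 6.21e-11). Divergent peaks in the same parts had 22.6%, 11.3%, 12.9% and 4.68%, with an odds ratio of 5.95, and peaks outside promoters had 33.7%, 26.4%, 22.2% and 20.6%, with an odds ratio of 1.95. The odds ratio of the one-strand peaks was not shown to differ from that of divergent peaks (Breslow-Day test over peaks, not an exact test, adjusted p = 0.112) or from that of peaks outside promoters (adjusted p = 0.156).

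The other motifs were less frequent. AGATAA was present at 12.5% of one-strand summits and 6.11% of their upstream flanks, GAGAGAG at 8.42% and 1.39%, the E-box CACGTG, a site of many helix-loop-helix factors, at 4.44% and 1.85%, and GTAAACA, the site of DAF-16 and other forkhead factors, at 3.79% and 1.34%. Each of these excesses passed the exact sign test, with adjusted p from 3.16e-28 to 1.16e-06. Without replicate 1 the excess of GTAAACA was 0.992 points, against 2.45 points in the optimal list, and missed the threshold (exact sign test, adjusted p = 0.0513), and that of GAGAGAG was 4.22 points, against 7.03, and passed. TATAAA, the TATA box of core promoters, was less frequent at summits than upstream, 9.86% and 13.4% (exact sign test, adjusted p = 0.000343), but its difference from the downstream flank, which had 11.7%, missed the threshold (-1.80 points, exact sign test, adjusted p = 0.0614). At least 1 of the 6 motifs was found at 1102 of 2161 one-strand summits (51.0%), more than 1 at 244, and the DAE together with AGATAA at 76.

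Against divergent peaks, one-strand peaks had more matches to AGATAA (12.5% and 7.60%, adjusted p = 0.00308), TATAAA (9.86% and 6.25%, adjusted p = 0.0160) and GAGAGAG (8.42% and 5.41%, adjusted p = 0.0362), by Fisher's exact test. None of these 3 differences passed the threshold without replicate 1, where the adjusted p was 0.397 for AGATAA, 0.447 for TATAAA and 1 for GAGAGAG, and without replicate 2 only AGATAA did. Differences in GTAAACA (3.79% and 2.70%, interval of the difference -0.704 to 2.46 points) and CACGTG (4.44% and 3.21%, interval -0.686 to 2.72 points) missed the threshold. Against peaks outside promoters, only TATAAA passed (9.86% and 7.45%, exact test, adjusted p = 0.00864), and it did not without replicate 1 (adjusted p = 0.204). GAGAGAG was present at 10.5% of one-strand summits more than 250 bp upstream and 6.89% of nearer ones (exact test, adjusted p = 0.0172). That difference was 0.289 points without replicate 1 (exact test, adjusted p = 0.851), and it also missed the threshold with promoters of 500 bp or 2000 bp upstream, in both shorter lists, with matches within 25 bp and without the X chromosome (exact tests, adjusted p from 0.0521 to 0.793).

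**Figure D3:**
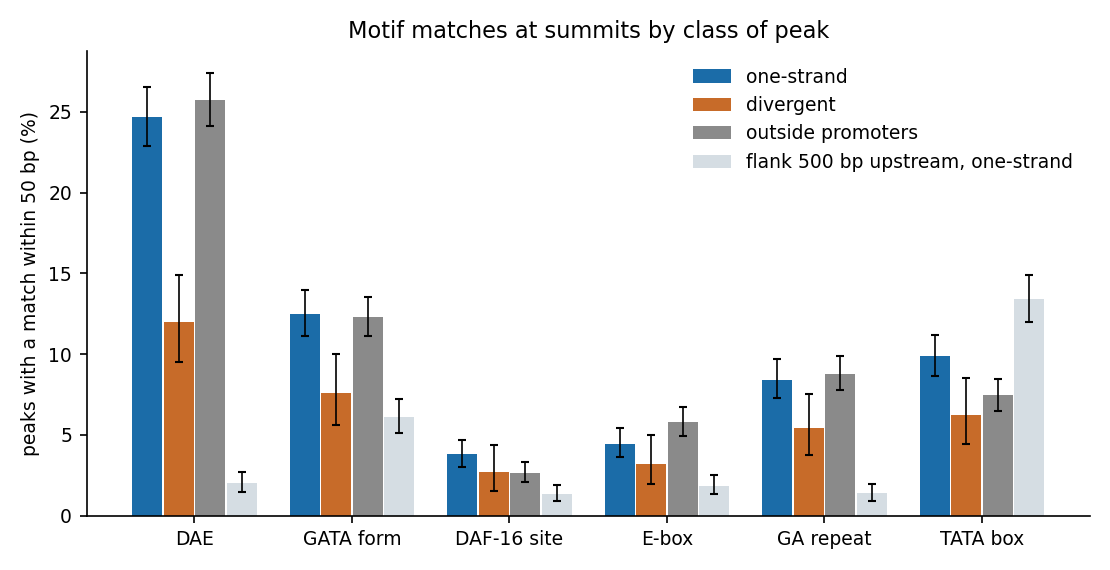
Percent of peaks with a match within 50 bp of the summit for 6 motifs in one-strand peaks, divergent peaks, peaks outside promoters and windows 500 bp upstream of the one-strand summits, with exact 95% intervals as error bars. The DAE stands at 24.7% in one-strand peaks, 12.0% in divergent peaks and 2.04% upstream of the one-strand summits, and the TATA box is the motif that is higher upstream than at the summit.

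The motifs leaned to a direction relative to the bound gene. Of one-strand summits with the DAE in a single direction, 223 had it in the gene's direction and 290 in the opposite one, a share of 43.5% (interval 39.1 to 47.9, exact binomial test against 50%, adjusted p = 0.00557 over 5 motifs). By the same exact test AGATAA lay in the gene's direction at 90 of 262 summits (34.4%, adjusted p = 2.28e-06) and GAGAGAG at 66 of 178 (37.1%, adjusted p = 0.00175). TATAAA leaned the other way, in the gene's direction at 120 of 199 summits (60.3%, exact test, adjusted p = 0.00557). GTAAACA was in the gene's direction at 35 of 81 summits (43.2%, exact test, adjusted p = 0.266).

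With upstream and downstream flanks pooled, only the lean of TATAAA passed the threshold against the flanks (Fisher's exact test, adjusted p = 0.0255). There 48.3% of 464 windows had it in the gene's direction. The test treats the summits and flanks of the same peaks as independent. Without replicate 1 TATAAA did not pass the exact test against 50% (57.1%, adjusted p = 0.0669). The flanks had 47.6% for the DAE (interval 37.6 to 57.6, n = 103, adjusted p = 0.561 against the summits), 39.4% for AGATAA (adjusted p = 0.393) and 51.1% for GAGAGAG (adjusted p = 0.238). The strand of the gene was itself uneven in its bases, with 27.8% A, 21.8% C, 18.01% G and 32.3% T at one-strand summits, and its part in the lean was not tested. By position the DAE was in the gene's direction at 39.5% of summits within 250 bp upstream and in equal numbers each way, 30 and 30, in the 250 bp farthest upstream, and TATAAA at 66.3% of summits within 250 bp upstream. Genes of the plus strand had the DAE in their direction at 46.4% and genes of the minus strand at 40.3% of summits, and by the exact binomial test the share passed at genes of the minus strand (adjusted p = 0.00461) and not at those of the plus strand (interval 40.3 to 52.6, adjusted p = 0.336).

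**Figure D4:**
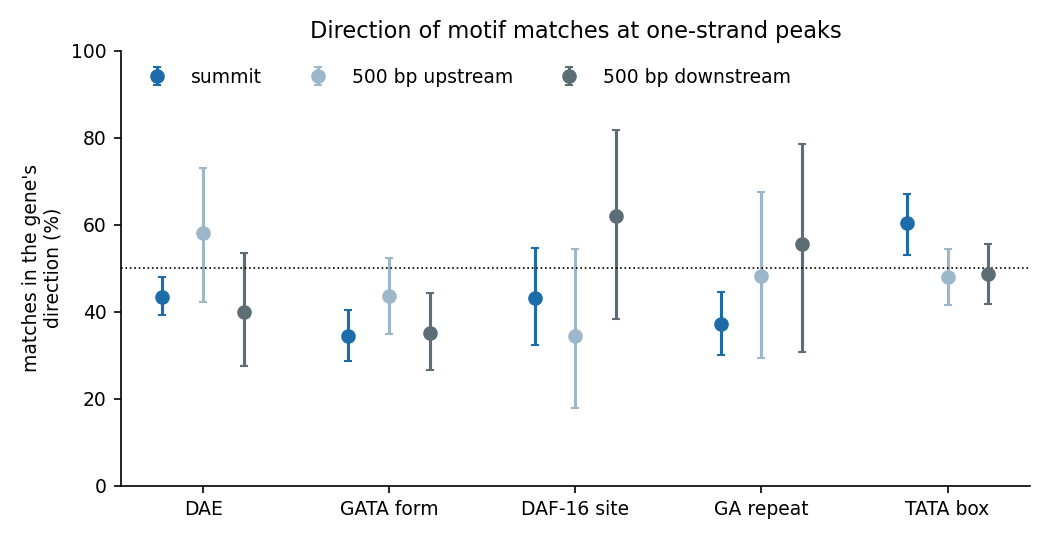
Percent of one-strand peaks whose match points in the gene's direction, for 5 motifs with a direction, at the summit and 500 bp upstream and downstream, with exact 95% intervals; the dotted line marks 50%. At the summit the DAE, the GATA form (AGATAA) and the GA repeat lie under the line and the TATA box above it, at 60.3%.

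Heptamers other than the DAE also differed between one-strand and divergent summits. Of all heptamers, 124 (1.51%) differed in frequency at an adjusted p under 0.05 in Fisher's exact test, 19 of them higher and 105 lower at one-strand summits. Of the 19, 12 contain TGAT or GATAA on either strand (63.2%), against 3.55% of all heptamers. The largest differences among the 19 were those of TGATAAG, of GATAAGA (21.1% of one-strand and 11.3% of divergent summits), of CTGATAA (20.4% and 10.98%), of ACTGATA (16.5% and 9.12%) and of TTATCAA (15.1% and 8.45%). Of the 105 lower ones, 82 contain CG (78.1%), against 33.7% of all heptamers. The largest were those of CGAGACC, at 2.04% of one-strand and 8.95% of divergent summits, CGCTCCA (1.94% and 8.61%), GAGACCC (1.57% and 8.11%), GCGAGAC (2.17% and 7.60%) and GCGCTCC (1.71% and 7.09%). The number called was 39 without replicate 1 and 106 without replicate 2, with 32 and 86 of them among the 124.

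One-strand peaks were spread over the chromosomes differently from both other classes. The X chromosome held 437 of 2161 one-strand peaks (20.2%), 30 of 592 divergent peaks (5.07%) and 723 of 2807 peaks outside promoters (25.8%), with adjusted p = 2.13e-20 and 2.93e-05 by Fisher's exact test. These tests make no allowance for where the sequence of each class lies, so they cannot tell binding from gene layout. The promoter sequence behind these classes was unevenly placed too: X held 15.5% of the sequence at promoters of one strand only, 5.53% of divergent promoter sequence and 18.6% of the rest. On X one-strand peaks numbered 139.99 per Mb of such promoter sequence, against 101.5 per Mb on the autosomes. Divergent peaks numbered 243.2 and 266.7 per Mb of their sequence, and peaks outside promoters 49.95 and 32.8 per Mb. The DAE was present at 72 of the 437 one-strand peaks on X (16.5%, interval 13.1 to 20.3) and at 461 of 1724 on the autosomes (26.7%, interval 24.7 to 28.9). Divergent peaks had 5 of 30 on X (16.7%) and 66 of 562 on the autosomes (11.7%), and outside promoters the shares were 22.3% and 26.97%. Among autosomes the one-strand share ran from 18.96% on chromosome I to 30.3% on chromosome IV. These shares by chromosome were looked at after the values were seen and are given without a test.

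The strongest one-strand promoter peak, rank 2 of all optimal peaks, lay at srz-62 (chrIV:3899870-3900165, summit at -477 bp), with a signal of 345.7 in the optimal list, 275.4 in replicate 1 and 71.8 in replicate 2. Next was that of frm-10 (chrV:13462899-13463249, summit at -153 bp), with 315.8, 234.6 and 87.6. The peak of lbp-3 (chrX:3256857-3257108, summit at -394 bp) had 278.2, 207.9 and 70.6. All 3 were among the 11 strongest peaks of each replicate. T24E12.13, abhd-3.2 and B0507.3 followed, with optimal signals of 273.1, 258.6 and 238.6.

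The peak of cpr-4 (chrV:6614394-6614705), whose product is a secreted cathepsin B-like protease, was at -117 bp with a signal of 232.8, and it ranked 24 in replicate 1 and 17 in replicate 2. ckc-1, a choline kinase gene of phospholipid synthesis, had 213.5 with its summit at -181 bp. cdc-48.1, which encodes an ATPase that extracts ubiquitinated proteins, had 210.7 at -166 bp. pnk-1, a pantothenate kinase gene of coenzyme A synthesis, had 187.02 with its summit at -944 bp, close to the edge of the promoter. acs-7, an acyl-CoA synthetase gene, had 178.3 at -184 bp, and rpl-3, a gene for a large ribosomal subunit protein, had 176.6 at -275 bp.

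The other genes among the 20 strongest were fbxc-29, an F-box gene, and T21D12.7, Y75B8A.28, C29F3.7, C52E2.2, ZK550.2, K06G5.1 and Y48A6B.7. Replicate 2 ranked some of these well below replicate 1: Y48A6B.7 was 35 in replicate 1 and 347 in replicate 2, rpl-3 was 44 and 224, fbxc-29 was 19 and 191, and C52E2.2 was 32 and 198. Of the 20 peaks, 13 had no exact DAE, 4 had it in the opposite direction and 3 in the gene's direction.

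Genes at one-strand peaks numbered 2092 of the 19973 protein-coding genes (10.5%), of which 1982 had 1 such peak and 110 had 2. Divergent peaks marked 1186 genes, 18 of which also had a one-strand peak. The lists of genes that follow were chosen with earlier results of these data known, so their counts are descriptions set beside 10.5%. Over the strongest one-strand peak of each gene, the median signal was 45.1 and 24.6% of 2052 peaks had the DAE. Whether a gene can have a one-strand peak depends on its neighbours. At 19736 of the 19973 genes at least 1 bp of the promoter was free of opposite promoters. That count does not say how long the free stretch was, and the part of gene layout in the list shares was not tested.

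Genes of the intestine and of digestion were often marked. Of 19 intestine markers found in the annotation 12 had a one-strand peak (63.2%, interval 38.4 to 83.7), with a median signal of 100.9 over their strongest peaks, and 5 of these 12 peaks had the DAE. act-5, the actin of the intestinal microvilli, had a signal of 152.6 (chrIII:13606184-13606433, summit at -231 bp), and elt-2, which encodes the main GATA factor of the gut, had 128.02 (chrX:10480675-10480886, -456 bp), and neither had an exact DAE. Cathepsin and aspartyl protease genes had peaks at 11 of 26 (42.3%) with a median signal of 91.7, and 7 of the 11 had the DAE. In that list cpr-4 came first, and cpr-3 had 166.97 at -96 bp with no exact match. Of the vacuolar proton pump genes, which acidify lysosomes, 9 of 21 had a one-strand peak (42.9%), 1 with the DAE, led by vha-12 with 109.1 and vha-9 with 66.5. Lysozyme genes were marked at 8 of 16, 3 with the DAE, among them lys-8 at 136.02 and lys-2 at 122.1.

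Detoxification and immune families had shares from 15% to 40.3%. Glucuronosyl transferase genes, which make compounds water-soluble, were marked at 27 of 67 (40.3%, interval 28.5 to 53.0), and 11 of the 27 strongest peaks had the DAE, among them that of ugt-26 with a signal of 100.6, while ugt-20 had 149.9 without one. Glutathione transferase genes were marked at 12 of 49 (24.5%), 1 with the DAE, with gst-22 at 136.1 and gst-13 at 126.4. Cytochrome P450 genes were marked at 17 of 74 (22.97%), 2 with the DAE, with cyp-37B1 at 136.03 and cyp-13A8 at 94.3. C-type lectin genes were marked at 36 of 240 (15%), and 17 of those 36 peaks had the DAE. Among them clec-265 had 166.7 without the element, and clec-78 had 151.8 with it in both directions.

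Genes of fat metabolism and regulators were marked as follows. Acyl-CoA synthetase, desaturase and elongase genes had one-strand peaks at 11 of 38 (28.9%), 4 with the DAE, with acs-7 first and elo-2, whose product lengthens fatty acids, at 118.5. Lipid-binding protein and lipase genes had them at 10 of 32 (31.2%), 2 with the DAE, with lbp-3 first and lbp-7 at 115.7. Nuclear hormone receptor genes had them at 60 of 269 (22.3%, interval 17.5 to 27.8), 15 with the DAE. nhr-291 had 163.7 with the element in both directions, and nhr-8, a receptor with a part in the response to toxins, had 148.2 with its summit 37 bp downstream of the 5' end. Of 12 GATA factor genes, elt-2 and elt-4 had one-strand peaks (16.7%, interval 2.09 to 48.4), the second with a signal of 48.7. Of 13 genes of insulin signalling and its effectors 3 did (23.1%, interval 5.04 to 53.8), led by akt-1 (69.0) and sgk-1 (67.02), kinases between the insulin receptor and DAF-16. Of 10 dod genes, named for acting downstream of DAF-16, 4 did, 2 of them with the DAE, led by dod-19 (111.01) and dod-22 (68.9).

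Growth genes had peaks at both one-strand and divergent promoters. Of 78 cytosolic ribosomal protein genes, 21 had a one-strand peak (26.9%) and 40 had a divergent peak only. A divergent peak only was found at 1168 of all 19973 protein-coding genes. None of the 21 strongest peaks had the DAE, and rpl-35 with 160.7 came second after rpl-3. Of 65 respiratory chain genes 8 had a one-strand peak (12.3%, interval 5.47 to 22.8) and 19 a divergent peak only, none of the 8 with the DAE, and cox-5A (123.4) and cox-5B (104.1), subunits of cytochrome c oxidase, were first. ER folding and unfolded protein response genes had one-strand peaks at 7 of 20 (35.0%), none with the DAE, led by xbp-1, the transcription factor of that response (139.6), and hsp-3, an ER chaperone gene (94.7). Heat shock protein genes had them at 3 of 22 (13.6%, interval 2.91 to 34.9), led by hsp-1, a constitutive cytosolic chaperone gene (103.9).

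Chemoreceptor, neuropeptide, cuticle and hedgehog-related genes were seldom marked, and the intervals of these 4 lists lay wholly below 10.5%. Chemoreceptor genes had one-strand peaks at 11 of 1171 (0.939%, interval 0.470 to 1.67), although srz-62 carried the strongest of all and srr-6 had 137.5. Of 102 neuropeptide genes 0 had one, which allows a share of up to 3.55% (exact 95% interval). Cuticle collagen and related cuticle genes had them at 6 of 194 (3.09%), led by col-63 (77.0) and col-74 (47.3), and hedgehog-related genes at 3 of 85 (3.53%), led by ptc-1 (56.6) and ptr-21 (45.8), and none of these 9 peaks had the DAE. Intervals included 10.5% for the GATA factor, insulin signalling, respiratory chain and heat shock lists above, and also for 4 smaller lists. Of 14 body wall muscle markers 2 had a one-strand peak (14.3%), unc-60 (signal 32.1) and deb-1 (31.6). Of 16 neuron markers 2 did (12.5%), egl-21, a peptide-processing enzyme gene (173.8), and snb-1, the gene of synaptobrevin (46.0). Of 14 germline markers 1 did (7.14%), cgh-1, an RNA helicase gene (83.9). Of 38 insulin-like peptide genes 3 did (7.89%), led by ins-12 (119.8) and ins-39 (70.4). The summit of egl-21, at -946 bp, lay in a coding exon of a same-strand neighbour. That of col-63 lay in an untranslated region of a same-strand neighbour, and that of col-74 in an intron of an opposite-strand neighbour.

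**Figure D5:**
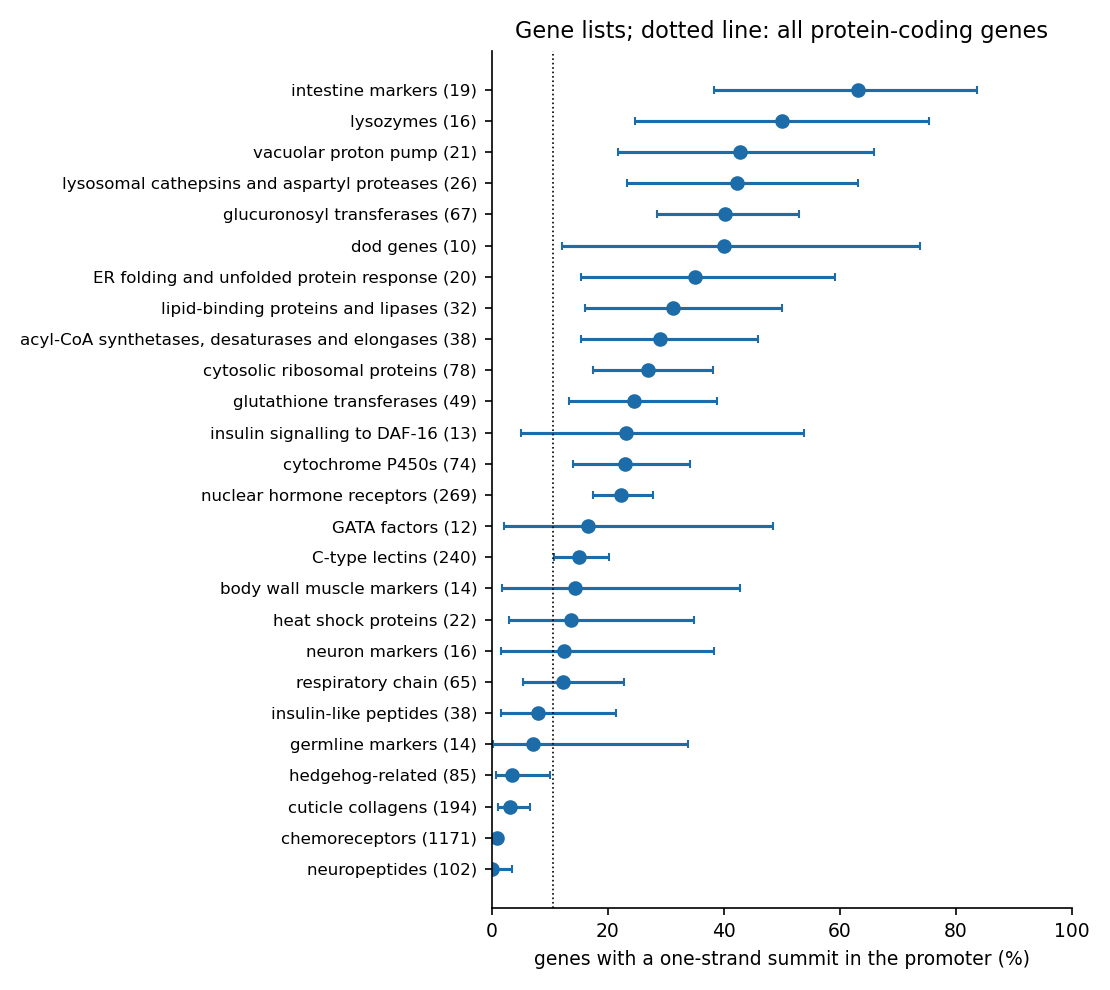
Percent of genes in each list with a one-strand summit in the promoter, with exact 95% intervals and the number of genes in brackets; the dotted line marks the 10.5% of all protein-coding genes. Intestine markers are highest at 63.2% and neuropeptide genes lowest at 0, and the intervals of 14 lists, nuclear hormone receptors and glucuronosyl transferases among them, lie wholly above the line.

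The optimal list was made from a pooled list and both replicate lists, so overlap with each replicate list was largely fixed by how the peaks were chosen, and it was high in all 3 classes. Of the 2161, 2160 overlapped a peak of replicate 1's relaxed list and 2029 (93.9%) one of replicate 2's, with at least 1 bp in common. In replicate 2 the share was higher than for divergent peaks (89.02%, Fisher's exact test, adjusted p = 0.000474) and did not differ beyond the threshold from peaks outside promoters (94.1%, adjusted p = 0.903). When each replicate was limited to as many of its strongest peaks as the optimal list holds, 67.0% of one-strand peaks and 55.4% of divergent peaks were in both (exact test, adjusted p = 2.08e-06). Peaks outside promoters had 65.2%, not shown to differ from the one-strand share (exact test, adjusted p = 0.322). One-strand peaks were also more often in the strongest 25% of the optimal list, 26.0% against 19.4% of divergent peaks (exact test, adjusted p = 0.00343). That excess did not pass without replicate 1 (adjusted p = 0.204) or without replicate 2 (adjusted p = 0.262, exact tests). Outside promoters the share was 25.4%, not shown to differ from the one-strand share (exact test, adjusted p = 0.776). Without replicate 1 the one-strand share was 4.57 points above it (exact test, adjusted p = 0.00102). Over the 2028 one-strand peaks in both replicate lists the summits lay a median of 36 bp apart, and the signals had a Spearman rho of 0.548 across peaks, which share a library and are not independent. Their median signal was 34.4 in replicate 1 and 12.8 in replicate 2, on scales that may differ between lists.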

How the data were processed

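Peak lists of eGFP-tagged PQM-1 from 2 biological replicates of 1 group of L3 larvae were used, on ce11. Per the file headers and the deposited notes, the optimal list derives from a pooled list and both replicate lists, and each replicate list from that replicate's reads and a further file. No source used here names the aligner, the peak caller or the threshold. The authors deposited a signal score per peak, with no stated scale, which served only to rank and describe peaks within a list, and a summit offset. Depth is unknown, since peak lists give no reads, and a control library was not analysed here. Library fragments were 150 to 350 bp, per the labels.

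Promoters and gene parts came from Ensembl 115, and sequence from the RefSeq genome of the same assembly. Motif matches on either strand were counted in a window of 50 bp each side of the summit and in flanks 500 bp away, set by the gene's direction. Shares have exact (Clopper-Pearson) 95% intervals, differences have Newcombe intervals, and both cover counting error only. Tests were two-sided: Fisher's exact test, the exact binomial and sign tests, and the Breslow-Day test, each with Benjamini-Hochberg adjustment within its family. The direction test ran over 5 motifs, since CACGTG reads alike on both strands. Peak width was also among the 24 comparisons between classes, as the share of peaks wider than the median of 340 bp. Only 2 of the 2161 one-strand peaks were wider, so the comparison is uninformative. The replicates give no separate values for the optimal list, so each was instead left out in turn by taking the other's strongest peaks, as many as the optimal list holds. The code was tested on simulated data. Python 3.11.15, numpy 2.4.6, scipy 1.17.1, pandas 2.3.3, statsmodels 0.14.6 and matplotlib 3.10.9 were used.

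The members and lists were chosen with earlier results of these data known. Named genes are those at the 20 strongest one-strand peaks, of which none lay within 20 kb of pqm-1 or unc-119, and up to 2 per list with the strongest one-strand peak. Heptamers named are the 10 with the largest excess over the upstream flanks and, among those called, the 5 with the largest difference each way. Printed sequences are the 3 strongest peaks of each kind outside chromosome I. The symbol opt-2 was not found in the annotation.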

Additional observations from a re-analysis of the deposited data

How the results depend on the processing

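The alternatives were other promoter extents, 5' ends of all transcripts, opposite genes of every kind, peak midpoints, shorter lists, the strongest peak of each gene, other motif windows and flanks, and each replicate left out. Leaving out ribosomal protein genes or the X chromosome, or keeping only summits up to 250 bp upstream, was chosen after seeing the data. The DAE excess over divergent peaks passed the threshold under all of these except the strongest 1000 peaks (13.7 points, exact test, adjusted p = 0.130), and ranged from 8.11 to 12.8 points without either replicate. The DAE direction share was 46.0% in the stronger 50% of the list and 44.9% in the strongest 1000 peaks, past the threshold in neither. The lower DAE share of summits more than 250 bp upstream passed the threshold with promoters of 500 bp upstream (-8.06 points), where such summits reach only to -500 bp. It also passed with 5' ends of all transcripts (-4.32), matches within 100 bp (-5.57) and without replicate 1. Over the replicates left out the difference ranged from -7.70 to -2.59 points. In the optimal list the share was low only from -500 to -251 bp (16.9% of 426). It was 28.4% from -750 to -501 bp and 25.4% beyond.

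The excess of strong peaks over divergent peaks missed the threshold with promoters of 2000 bp (1.78 points), in the stronger 50% (6.37), in the strongest 1000 (6.40) and without either replicate (2.998 to 4.12). The excess found in both strongest replicate lists missed it in the stronger 50% (3.91) and the strongest 1000 (0.958). One-strand peaks and their genes numbered 1108 and 1102 in the stronger 50%, and 405 and 407 in the strongest 1000. Heptamers called numbered 35 in the stronger 50%, 0 in the strongest 1000 (Fisher's exact test, 246 at an unadjusted p under 0.05), 42 within 25 bp, 49 for summits up to 250 bp upstream, and 39 to 106 without either replicate. With 50% of each peak covered, overlap was 97.3% with replicate 1 and 90.9% with replicate 2. The excess of one-strand peaks in replicate 2's list was -0.512 points in the stronger 50%. In the strongest 1000 peaks the differences from the upstream flanks of GTAAACA (0.741 points), CACGTG (2.72) and TATAAA (-1.73) missed the threshold. The cause of these changes was not tested. No paired analysis was possible because there was 1 group. Peak lists without reads limit what can be said of weak binding.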
